A study of Rattus norvegicus with 86 samples.

Results

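Immediate early genes are transcribed within minutes of strong synaptic input, before any new protein has to be made, and their mRNA is short-lived. In neurons, calcium entry and the MAP kinase cascade act on transcription factors already bound at their promoters, chiefly SRF with its partners at CArG boxes and CREB at cyclic AMP response elements. In the striatum, to which the nucleus accumbens belongs, they are widely used as markers of recently active neurons and are induced by dopamine, stimulants, stress and novelty.

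The 10 genes described here were chosen by name, as rows of a table of 17180 Ensembl rat genes. They comprise the AP-1 subunits Fos (ENSRNOG00000008015), Junb (ENSRNOG00000042838) and Jun (ENSRNOG00000026293), the zinc finger factors Egr1 (ENSRNOG00000019422) and Egr2 (ENSRNOG00000000640), the stress-inducible bZIP factor Atf3 (ENSRNOG00000003745) and the orphan nuclear receptor Nr4a1 (ENSRNOG00000007607). The other 3 are no transcription factors of this kind. Arc (ENSRNOG00000043465) encodes a dendritic protein that acts on AMPA receptor trafficking, Dusp1 (ENSRNOG00000003977) a phosphatase that switches off MAP kinases, and Btg2 (ENSRNOG00000003300) an antiproliferative cofactor of mRNA deadenylation. Pairs of symbol and identifier were used as given with the choice of genes and were not checked against an annotation.

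RNA-Seq was performed on polyA RNA of the nucleus accumbens core, dissected from both sides of frozen brain sections, of rats from the Heterogeneous Stock (HS), which was bred from inbred founder strains and is kept outbred. There was no treated group, as none of the rats had been given a drug or tested for behaviour, and they were kept in groups. They differed by sex and by a numbered rat batch whose meaning is not given in the sources used here, and their ages are not in the labels. The labels listed 86 samples, of which 11 were marked as removed, and the table held 75 libraries, 1 per rat, from 38 females and 37 males. Rat batches 2, 3, 4 and 6 held 2, 13, 14 and 8 females and 10, 7, 12 and 8 males. Rat batch 5 was 1 female, whose values are shown but who was left out of the fits, which held 74 libraries. The number after a rat's sex only follows the order of the sample records. The columns of the table fell into 3 runs of ordered identifiers. All 12 libraries of rat batch 2 were in the first run and all 26 and 16 of rat batches 4 and 6 in the last, while rat batch 3 had 7, 12 and 1.

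Values are levels on the scale log2(scaled count + 1), in which a difference of 1 is a doubling. Total counts per library, recovered from the steps of the values, ranged from 8455371 in male rat 31 to 26145108, with a median of 17734520. Levels of the 10 genes did not rise or fall detectably with the total. Pearson's r between the residual level and the log2 total lay between -0.13 and 0.03 over the 74 rats, and the smallest of the 10 unadjusted permutation p-values was 0.291. Spearman's rho lay between -0.06 and 0.11, and r between -0.09 and 0.13 without the 2 rats farthest from the median. Within single rat batches r lay between -0.35 and 0.29. Since the tissue is a mixture of cells, fewer cells of a type and less RNA per cell cannot be told apart.

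Of the 10 genes, 6 had an entry in the RefSeq promoter table (build GRCr8), which gives 250 bases before and 50 after each gene's start. The 250 bases before the start are shown for 2 pairs of genes, as examples of pairs with closely related levels (below) and a CArG box or full cyclic AMP response element in both. Junb and Nr4a1 (r = 0.93), Egr2 and Nr4a1 (r = 0.90) and Egr2 and Junb (r = 0.89) were about as closely related as Dusp1 and Btg2 (r = 0.89). Of the letters searched, these 3 pairs shared only the core TGACG, which all 6 promoters held. Capitals mark matches to the letters searched, on either strand. Egr1 lies on the plus strand at chr18:26736828-26737077 and Egr2 on the minus strand at chr20:21054442-21054691.
Egr1: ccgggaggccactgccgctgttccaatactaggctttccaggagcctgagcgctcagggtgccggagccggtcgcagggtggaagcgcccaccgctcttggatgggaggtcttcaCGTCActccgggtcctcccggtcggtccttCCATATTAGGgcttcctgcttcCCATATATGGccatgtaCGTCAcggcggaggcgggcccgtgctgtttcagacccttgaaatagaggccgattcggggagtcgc
Egr2: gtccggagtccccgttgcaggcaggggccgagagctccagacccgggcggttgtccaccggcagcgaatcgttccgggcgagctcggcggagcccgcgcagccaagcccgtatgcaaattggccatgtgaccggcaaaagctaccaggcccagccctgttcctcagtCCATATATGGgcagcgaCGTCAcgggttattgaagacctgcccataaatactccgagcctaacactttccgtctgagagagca
Dusp1 lies on the plus strand at chr10:17184603-17184852 and Btg2 on the minus strand at chr13:48087691-48087940.
Dusp1: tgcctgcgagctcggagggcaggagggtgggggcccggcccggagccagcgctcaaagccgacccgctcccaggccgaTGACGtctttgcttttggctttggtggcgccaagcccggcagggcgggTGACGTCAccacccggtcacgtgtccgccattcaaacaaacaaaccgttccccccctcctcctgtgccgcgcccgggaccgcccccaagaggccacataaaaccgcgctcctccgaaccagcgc
Btg2: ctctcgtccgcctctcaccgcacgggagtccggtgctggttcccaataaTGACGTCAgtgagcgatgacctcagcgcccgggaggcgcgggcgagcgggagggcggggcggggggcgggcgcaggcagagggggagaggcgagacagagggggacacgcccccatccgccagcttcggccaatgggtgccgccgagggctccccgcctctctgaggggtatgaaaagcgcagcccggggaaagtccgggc

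The CArG box of SRF matched in 2 of the 6 promoters, those of Egr1 and Egr2, against 1.64% of the 33469 promoters in the table. Egr1 held CCATATTAGG from base -105 to -96 and CCATATATGG from -83 to -74, counted back from the start, and Egr2 held CCATATATGG at the same distance, -83 to -74. The full cyclic AMP response element TGACGTCA was found in 2 of the 6, Dusp1 at -124 to -117 and Btg2 at -201 to -194, against 1.83% of all promoters. Its core TGACG, which overlaps the full element and was added to the search later, occurred in all 6 promoters, against 21.2% of the table. In Egr1 and Egr2 this core, read on the opposite strand as CGTCA, lay at the same distance of -66 to -62 in both genes. Nr4a1 on chromosome 7 held the core 4 times and the EGR element CGCCCCCGC once, at -73 to -65, an element found in 2.73% of promoters. Junb on chromosome 19 held the core once and TATAAA at -49 to -44, which 14.2% of promoters held. The AP-1 element TGAGTCA, whose other strand reads TGACTCA, occurred in 0 of the 6 and in 4.63% of the table, and TGACGCAA in 0 of the 6 and in 0.496%. Every match lay before the start, so that counts over the 6 genes were the same in the 250-base window. These matches describe letters in a window and not bound sites. Fos, Arc, Jun and Atf3 were not in the table.

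All 10 genes were expressed, and 9 of them held at least 69 recovered counts in every library of the fits. Fos ranged over the 75 rats from 6.11 to 10.70 with a median of 8.95, its lowest value being that of male rat 28 of rat batch 6 and its highest that of female rat 41 of rat batch 3. Libraries held between 69 and 1610 recovered Fos counts, with a median of 440. Among scaled counts the highest rat exceeded the lowest 24.4-fold. Junb, an AP-1 subunit that can pair with Fos, ranged from 10.09 to 12.67 with a median of 11.45. Jun, another AP-1 subunit that can pair with Fos, ranged from 8.15 to 10.72 with a median of 9.39. Both spanned a narrower range than Fos, with a highest rat 5.99-fold and 5.95-fold above the lowest.

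Egr1, a factor induced through SRF, ranged from 10.79 in female rat 33 to 13.32 in male rat 37, with a median of 11.97, a 5.76-fold span. Egr2, of the same family, spanned 19.1-fold, from 6.71 in male rat 28 to 10.96 in male rat 37, with a median of 9.07. Both Egr genes were thus highest in the same rat. Nr4a1 ranged from 9.23 to 12.73 with a median of 11.16. Atf3 was the least covered of the 10 genes, with 1 recovered count in male rat 28, a median of 17 and 481 counts in male rat 16, and 3 libraries held at most 3 counts of it. On the log2 scale its range was 1.00 to 9.04 and its median 4.32, and its low values are imprecise for that reason.

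Arc, whose mRNA travels into dendrites, ranged from 9.24 in male rat 28 to 13.35 in male rat 37, with a median of 11.70, a 17.4-fold span. Dusp1 spanned 11.5-fold between the same 2 rats, from 7.61 to 11.13, with a median of 9.71. Btg2 ranged from 6.41 in male rat 28 to 10.63 in female rat 5, with a median of 7.84. In sum, male rat 28 was the lowest rat for 6 of the 10 genes, and male rat 37 the highest for 5.

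**Figure D1:**
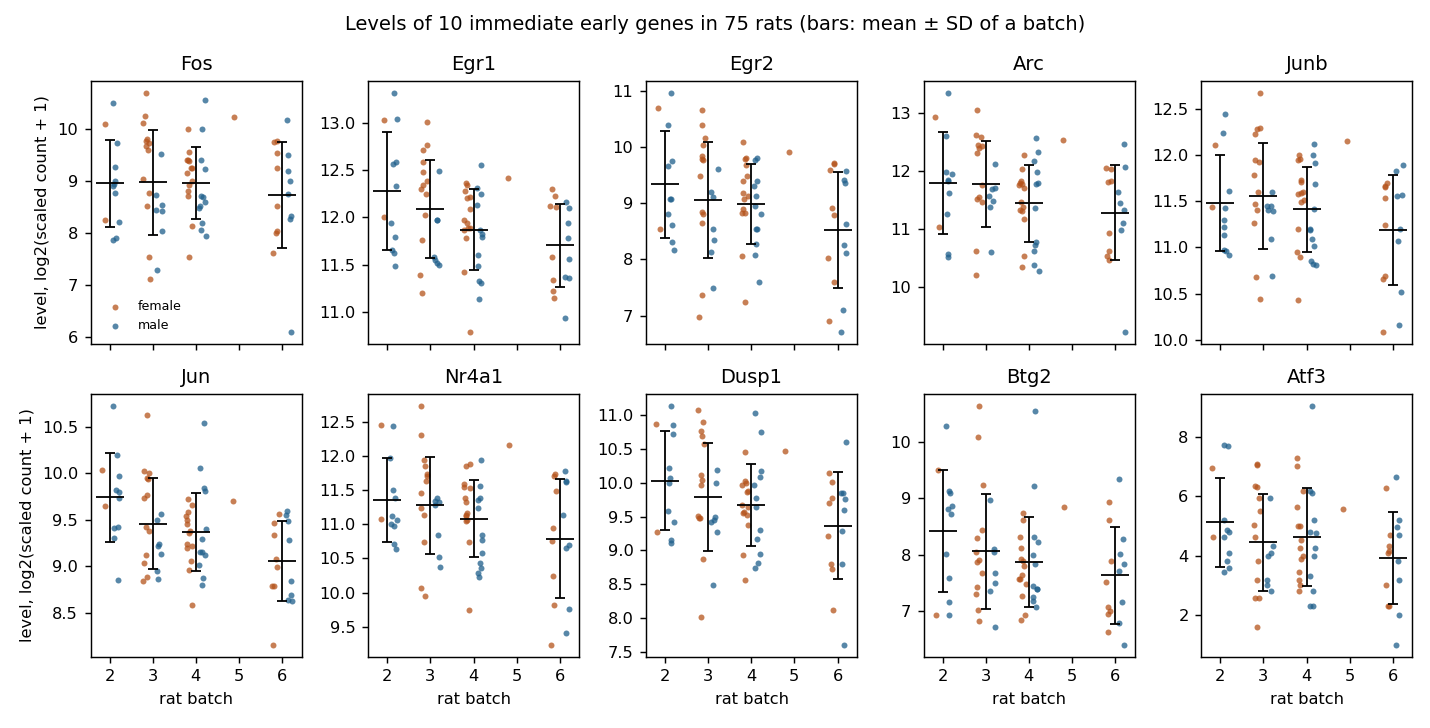
Level of each immediate early gene, log2(scaled count + 1), in 75 rats by rat batch, with females and males as separate points and black bars for the mean and SD of a batch (none for rat batch 5, which is 1 rat). The batches overlap in all 10 genes, and the lowest Fos (6.11) and Arc (9.24) values belong to male rat 28 of rat batch 6.

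Rats differed widely in these genes once sex and rat batch were taken into account. The SD between rats, taken from residuals after additive effects of sex and rat batch were removed (69 residual degrees of freedom), was 0.87 for Fos with a 95% interval of 0.75 to 1.05. The median over genes whose mean level lay within 0.5 of that of Fos was 0.18, and Fos ranked 13th of these 2450 genes, itself included. Arc had an SD of 0.76 (0.65 to 0.91), which ranked 1st of 1052 genes of like mean, whose median was 0.14. Egr1 had an SD of 0.48 and Nr4a1 of 0.68, and each ranked 3rd among genes of like mean, of which there were 767 and 1420. Junb, at 0.53, ranked 4th of 1159. For Egr2 the SD was 0.90, for Btg2 0.92 and for Dusp1 0.72, which ranked 12th of 2474, 10th of 2103 and 10th of 2467. Jun varied least of the 10, with an SD of 0.45 and rank 36 of 2525. Atf3 varied most, with an SD of 1.61 and rank 40 of 942, where the median was 0.60.

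The median SD of the 10 genes was 0.74, against 0.25 over all 17180 genes and 0.20 over the 12988 with a mean level of at least 5. The SD that counting alone would give was between 0.02 and 0.10 for 9 genes and 0.37 for Atf3. Within each rat batch the SD of Fos was 0.88, 0.94, 0.70 and 1.05 in rat batches 2, 3, 4 and 6, where the median of genes with a mean level of at least 5 was between 0.18 and 0.20. The order of the SD across the 10 genes is that of log2 values, in which the highest and lowest rats weigh most.

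**Figure D2:**
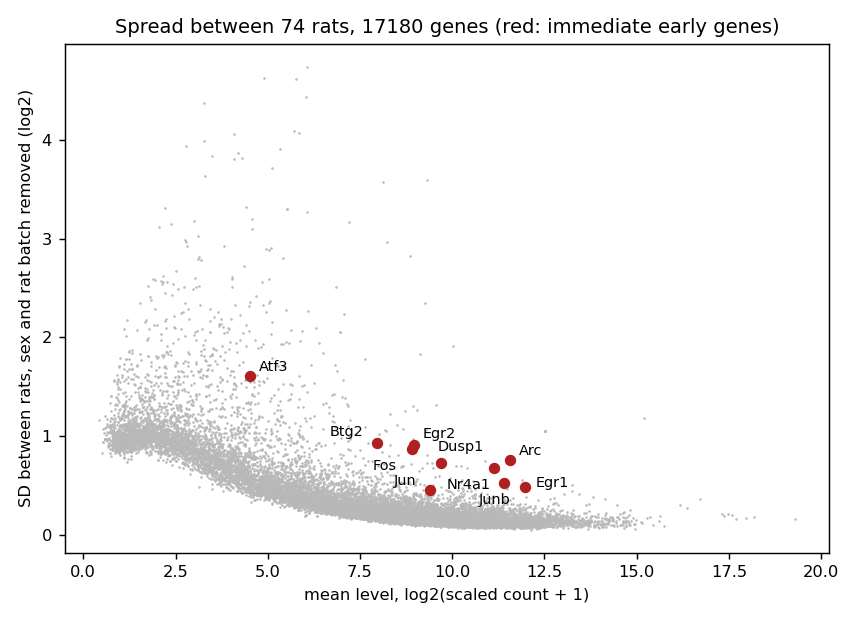
SD between rats after additive effects of sex and rat batch were removed (vertical axis, log2 units) against mean level (horizontal axis, log2(scaled count + 1)) for 17180 genes in 74 rats, with the immediate early genes in red. Each red point lies above most grey points of its mean level, with Arc (0.76) highest among genes of like mean.

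The genes rose and fell together from rat to rat. To describe a rat by 1 number, residuals were divided by their SD for each gene and averaged over the 10 genes, which gave a mean z-value between -1.88 and 1.98. In 19 of the 74 rats all 10 genes lay above the value fitted for their sex and rat batch (additive effects of both), and in 16 rats all 10 lay below, while 39 were mixed. Only 4 rats had 5 genes above and 5 below. Rats with all 10 genes above occurred in each of rat batches 2, 3, 4 and 6 (3, 4, 6 and 6 rats) and in both sexes (8 females and 11 males). Likewise, rats with all 10 below numbered 3, 5, 5 and 3 in these rat batches and comprised 9 females and 7 males. The fit makes the residuals of each gene average out within every rat batch and each sex. These counts therefore cannot compare rat batches or sexes.

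At the low end stood female rat 8 of rat batch 3, with a mean z-value of -1.88, Fos at 7.12, Egr1 at 11.39 and Arc at 10.22. Male rat 28 followed at -1.85, with Fos at 6.11, Egr1 at 10.94 and Arc at 9.24. At the high end stood male rat 16 of rat batch 4, at 1.98, with Fos at 10.56, Egr1 at 12.56 and Arc at 12.57. Male rat 37 of rat batch 2, at 1.89, had Fos at 10.51, Egr1 at 13.32 and Arc at 13.35. These 4 rats came from 4 rat batches, and their totals were 20730190, 18595731, 17030761 and 20195770 counts, none near the lowest of the series.

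**Figure D3:**
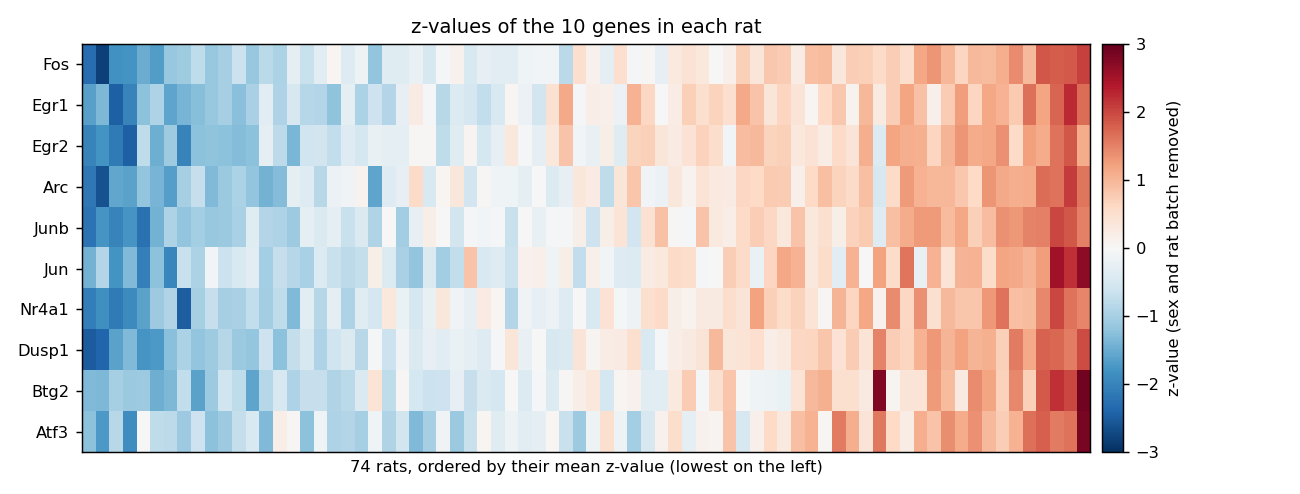
z-values of the 10 genes (rows) in each of 74 rats (columns, ordered by their mean z-value), where red is above and blue below the value fitted for the rat's sex and rat batch. Of the 74 columns, 16 are blue in all 10 genes and 19 red in all 10, and the other 39 are mixed.

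Every one of the 45 pairs of these genes was positively correlated across rats. Pearson's r of the residuals ran from 0.70 to 0.95 with a median of 0.83, and Spearman's rho from 0.68 to 0.95. In all 45 pairs, for r and for rho, the two-sided p was 1e-05, the smallest that 100000 permutations of rats within rat batch can give. Fos and Arc were the closest pair, with r = 0.95 and rho = 0.93, and r of 0.98, 0.95, 0.90 and 0.99 in rat batches 2, 3, 4 and 6. The log2 ratio of Fos to Arc had an SD of only 0.29 between rats. Egr1 and Egr2 followed with r = 0.94 and rho = 0.95, then Junb and Nr4a1 with r = 0.93 and rho = 0.94, and Fos and Dusp1 with r = 0.93 and rho = 0.91.

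Lower values involved Atf3, Btg2 and Jun. The lowest was that of Egr2 and Atf3, with r = 0.70 and rho = 0.70, and r for this pair ran from 0.55 (rat batch 4) to 0.91 (rat batch 2). Median r over the 45 pairs was 0.89, 0.81, 0.82 and 0.85 in rat batches 2, 3, 4 and 6. After the 2 rats farthest from the median of the first gene of a pair were left out, r lay between 0.67 and 0.93. Without male rat 28 the lowest r was 0.68 and the median 0.83. For comparison, 9 of 9 genes had an r with Fos above 0.7, while 12 of the 17170 genes outside the set (0.0699%) did, and the median r of those genes with Fos was -0.009.

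A single axis held 83.8% of the variance of the 10 standardised genes, with loadings between 0.29 (Atf3) and 0.33 (Dusp1 and Fos). Another 5.53% lay on the next axis, which set Egr2, Arc, Junb, Nr4a1 and Egr1 (0.36, 0.26, 0.24, 0.23 and 0.22) against Btg2, Atf3, Jun and Dusp1 (-0.53, -0.50, -0.31 and -0.11). Fos was near 0 on it, at 0.04. Female rat 5 had the contrast of this axis, with z-values of 2.79 for Btg2 and 1.58 for Atf3 against -0.42 for Egr2 and -0.48 for Arc. This rat was the only 1 of rat batch 3 in the last run of columns, and the axis was not recomputed without it. Correlations given Fos are a further description. Over the 36 pairs without Fos, the median r given Fos was 0.28, with 5 pairs above 0.5 and 5 below 0. Egr1 and Egr2 kept the highest value, 0.80, followed by Junb and Nr4a1 at 0.66, Egr2 and Nr4a1 at 0.62, Dusp1 and Btg2 at 0.61 and Egr2 and Junb at 0.55. Egr1 with Egr2 and Dusp1 with Btg2 are the pairs whose promoters are printed above. Junb with Nr4a1, Egr2 with Nr4a1 and Egr2 with Junb shared only the core TGACG there. Arc, the closest to Fos, had 0.39 with Egr1 and 0.34 with Egr2 once Fos was given, 0.16 with Junb, 0.15 with Nr4a1, and 0.02, -0.13, -0.18 and -0.21 with Dusp1, Jun, Btg2 and Atf3. Some pairs from opposite sides of the next axis were higher than these, such as Egr1 and Dusp1 at 0.41 and Junb and Jun at 0.40.

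**Figure D4:**
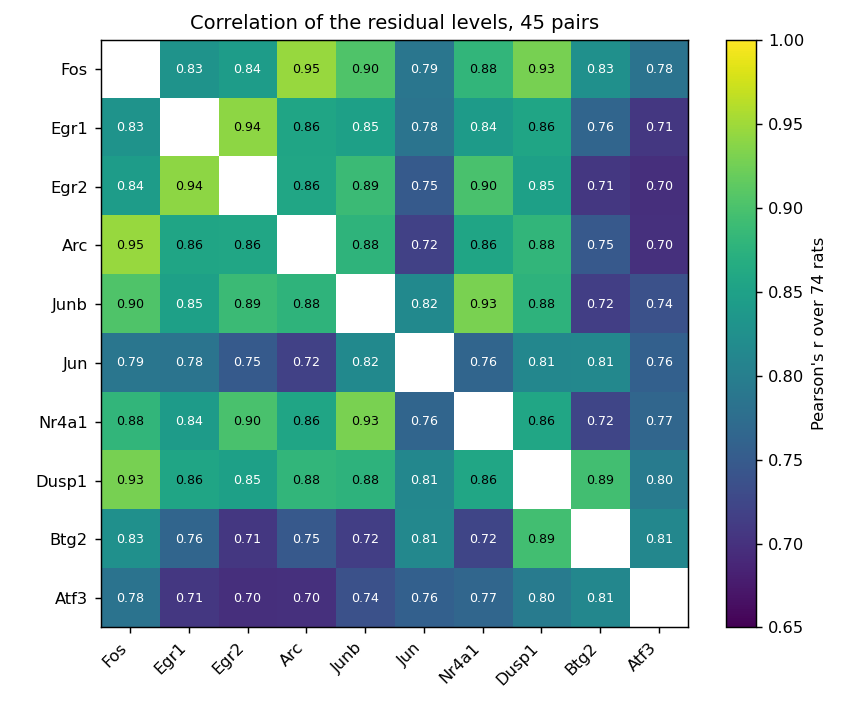
Pearson's r over 74 rats for each of the 45 pairs, from residuals after additive effects of sex and rat batch were removed (colour scale from 0.65 to 1). Fos with Arc (0.95), Egr1 with Egr2 (0.94) and Junb with Nr4a1 (0.93) are the brightest cells, and Atf3 has the darkest row.

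A fit across all genes asked which of them changed with Fos from rat to rat, with sex and rat batch in the model. Higher values with higher Fos were called for 66 of the 17179 genes tested, or 0.384%, and lower values for 3, or 0.0175%, by limma with Benjamini-Hochberg adjustment at 0.05. All 9 other immediate early genes were among the 66. Arc ranked first of all genes, with a slope of 0.82 log2 units per log2 unit of Fos (SE 0.03, adjusted p = 3.58e-33), and Dusp1 ranked next with 0.77 (SE 0.04, adjusted p = 5.22e-29). Junb followed with 0.55 (SE 0.03) and Nr4a1 with 0.69 (SE 0.04). Slopes near that of Arc were found for Egr2, at 0.87 (SE 0.07), and Btg2, at 0.87 (SE 0.07). Egr1 and Jun changed least per unit of Fos, with slopes of 0.46 (SE 0.04) and 0.41 (SE 0.04). Among the 9 genes, only the slope of Atf3 was above 1, at 1.44 (SE 0.14, adjusted p = 2.06e-13). The median slope over all genes was -0.002.

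Within single rat batches all slopes stayed positive, but the number of immediate early genes called was 5, 9, 9 and 7 of 9 in rat batches 2, 3, 4 and 6, of which rat batch 2 had the fewest rats (12). Over all genes, 7, 22, 47 and 16 were called in these fits. Arc was called in each of them, with slopes of 1.02, 0.74, 0.87 and 0.79. In rat batch 2, Dusp1, Btg2, Jun and Atf3 were not called, with slopes of 0.73, 1.05, 0.46 and 1.39 (limma adjusted p from 0.322 to 0.882). In rat batch 6, Jun and Atf3 were not called, with slopes of 0.30 and 1.19 (limma adjusted p = 0.383 and 0.111). With Egr1 in place of Fos, 0.46% of genes were called higher, and again all 9 others were among them. Egr2 then ranked first, with a slope of 1.77 (SE 0.08). With Arc in its place 0.361% were called higher, all 9 others included, and Fos ranked first with a slope of 1.09 (SE 0.04). These 3 fits share their rats, and their values are set side by side only.

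Other genes also followed the mean z-value of the 10. Across the 17170 genes outside the set, r with the mean z-value had a median of -0.01 and a 5th to 95th percentile range of -0.22 to 0.21, and 43 genes (0.25%) had r above 0.5. The 10 genes themselves, each set against the mean of the other 9, had r between 0.81 (Atf3) and 0.95 (Dusp1), with Fos at 0.94. Among other genes, 8 reached at least the value of Atf3. Of those with a mean level of at least 5 and r of 1 sign in all 4 rat batches, ENSRNOG00000007830 was highest, with r = 0.88 and values of 0.90, 0.89, 0.80 and 0.95 in rat batches 2, 3, 4 and 6. Its level ranged from 6.19 to 11.12, and its slope on Fos was 0.99. ENSRNOG00000001189 was next with r = 0.87 and a slope on Fos of 0.35. The 15 highest genes had r from 0.71 to 0.88, and their lowest r within any of the 4 rat batches was 0.56. Slopes on Fos are given for these genes without a test, since the mean z-value that ranked them includes Fos.

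Genes moving the other way were fewer and followed less closely. Only 1 gene outside the set had r below -0.5, ENSRNOG00000016719, with r = -0.62 and values of -0.42, -0.70, -0.76 and -0.58 in rat batches 2, 3, 4 and 6. Its slope on Fos was -0.11 and its SD between rats 0.16. ENSRNOG00000016248 was next with r = -0.48 and a slope of -0.21.

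**Figure D5:**
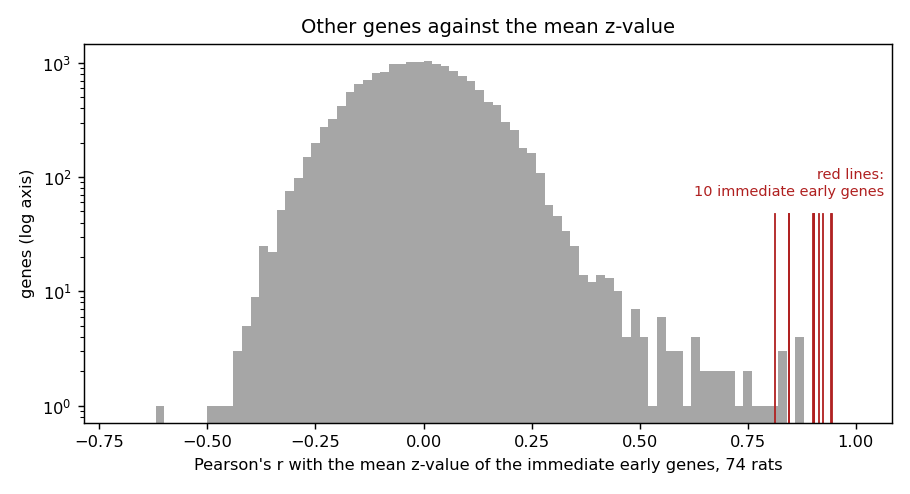
Number of genes (log axis) by their Pearson's r with the mean z-value of the immediate early genes over 74 rats, for 17170 other genes in grey, and the r of each of the 10 genes with the mean of the other 9 as red lines. The red lines stand between 0.81 and 0.95, where 8 other genes lie at or above the lowest of them.

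Rat batch was compared next, with sex in the model. An F test over rat batches 2, 3, 4 and 6 called 53.5% of all genes and 2 of the 10, Egr1 (adjusted p = 0.00805) and Jun (adjusted p = 0.00311). Egr1 stood highest in rat batch 2, at 12.28 ± 0.62 (SD, n = 12), followed by 12.09 ± 0.52 (n = 20), 11.87 ± 0.43 (n = 26) and 11.70 ± 0.44 (n = 16) in rat batches 3, 4 and 6. Jun had the same order, at 9.74 ± 0.48, 9.46 ± 0.49, 9.37 ± 0.42 and 9.06 ± 0.43. Fos was at 8.96 ± 0.84, 8.98 ± 1.01, 8.96 ± 0.69 and 8.74 ± 1.02 and did not pass (adjusted p = 0.806). The batches overlapped in range for each of the 3 genes. The 1 rat of rat batch 5 had Fos at 10.24, Egr1 at 12.42 and Jun at 9.70.

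Between neighbours in this order of rat batches, none of the 10 genes passed the limma test. Between rat batches 3 and 2, 1.96% of all genes were called lower in rat batch 3, between 4 and 3 20.3% were called lower in rat batch 4, and between 6 and 4 1.4% were called lower in rat batch 6, with 0 of the 10 genes in each case. From rat batch 2 to rat batch 6, 5 of the 10 genes were lower against 17.9% of all genes, with differences in Jun of -0.71 (SE 0.17, adjusted p = 0.000785), Egr1 of -0.65 (SE 0.18, adjusted p = 0.00336), Egr2 of -0.93 (SE 0.34), Nr4a1 of -0.66 (SE 0.26) and Dusp1 of -0.69 (SE 0.27). The median difference of the 10 genes was -0.68 and that of all genes -0.005. Between rat batches 4 and 2, Egr1 was lower, with a difference of -0.50 (SE 0.17, adjusted p = 0.0207), as the only 1 of the 10 against 13.2% of all genes. Between 6 and 3, Jun was lower, with a difference of -0.39 (SE 0.15, adjusted p = 0.0247), again the only 1, against 22.3%.

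These calls between rat batches 2 and 6 changed with 1 library and with the order of the columns, and for Nr4a1 also with other processing. Nr4a1 was not called with rank-based values (limma adjusted p = 0.0573) or with the total count as covariate (difference -0.62, limma adjusted p = 0.0568). Without male rat 28, Egr2 differed by -0.81 (adjusted p = 0.0593), Nr4a1 by -0.56 (adjusted p = 0.0831) and Dusp1 by -0.56 (adjusted p = 0.0979), while Egr1 and Jun were still called. With the column run in the model, the F test called 169 genes and 0 of the 10. In that fit, rat batch 6 minus 2 was -0.66 for Egr1, -1.19 for Jun, -0.89 for Nr4a1, -2.04 for Dusp1 and -0.52 for Egr2. Among the others it was -3.56 for Btg2, -4.34 for Atf3 and -1.06 for Fos, but -0.30 for Arc and -0.26 for Junb. Without the column run these were -0.78, -1.31, -0.33, -0.57 and -0.35. Only 1 library of rat batch 3, that of female rat 5, links the first and last runs. Differences between rat batches 2 and 6 fitted with the column run thus rest on that library. Rat batch and column run cannot be told apart for rat batches 2 and 6.

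No difference between the sexes was detected in these genes. Of all genes, 0.0873% differed by sex with rat batch in the model, and of the 10 genes 0 did. Female rats had Fos at 9.09 ± 0.85 and male rats at 8.76 ± 0.87 (SD over 37 rats of either sex), a fitted difference of -0.36 for male minus female (95% interval -0.77 to 0.05). Egr1 was at 12.04 ± 0.52 and 11.89 ± 0.52, a difference of -0.23 (-0.45 to -0.0002), with an unadjusted p of 0.0498 and an adjusted p of 0.773. Egr2 differed by -0.37 (-0.80 to 0.05), Nr4a1 by -0.26 (-0.58 to 0.06), Junb by -0.18 (-0.42 to 0.07) and Arc by -0.17 (-0.52 to 0.19). The widest interval was that of Atf3, with a difference of -0.33 (-1.09 to 0.43). Dusp1 differed by -0.09 (-0.43 to 0.25), Jun by -0.06 (-0.28 to 0.15) and Btg2 by 0.02 (-0.42 to 0.45).

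Within rat batch 3 the male minus female value was negative for all 10 immediate early genes, from -0.39 (Jun) to -0.86 (Fos). As pairs of these genes had a median r of 0.81 in rat batch 3, the 10 signs are not independent. None of them passed the test, which called 10 genes over all genes there. In rat batches 4 and 6 the Fos differences were -0.17 and -0.14 and those of Btg2 were 0.22 and 0.12. A test of the interaction over rat batches 3, 4 and 6 called 0% of genes, with 0 of the 10 at an unadjusted p under 0.05 and 506 of all genes there. Run with voom on recovered counts, the interaction also called 0 genes.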

How the data were processed

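Values were analysed for the nucleus accumbens core libraries of 75 HS rats. According to their methods, the authors trimmed single-end reads with cutadapt, estimated gene counts with RSEM on Ensembl's rat transcripts, scaled them by upper quartile in DESeq2 and dropped genes with over 1 read in under 25% of libraries or under 100 reads. The deposited values are log2 after a pseudocount of 1; the processing notes name the build Rnor_6.0, and versions are not given in the sources used here. Each library's scaling factor (0.708 to 2.183) was recovered from the steps of the scaled counts and checked on simulated data. No column was unmapped (0 columns).

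All genes were fitted with limma 3.58.1 in R 4.3.3 (lmFit, eBayes with trend; tested on simulated data), with Benjamini-Hochberg adjustment over all genes at 0.05. Residuals, correlations and permutations used Python 3.11.15, numpy 2.4.6, scipy 1.17.1 and pandas 2.3.3, and figures matplotlib 3.10.9. Floors cover counting error only. The 10 genes were chosen, and the tests set, with earlier results of these data known. Genes outside the set were named by rule: the highest and lowest r with the mean z-value among genes with a mean of at least 5 and 1 sign in 4 rat batches, of which 2 at each end are printed. Other pathway lists and cell type marker lists were set but not analysed here, because symbols were paired with identifiers for the 10 genes only, so the dissected tissue was not checked against markers. Alternatives were a mean level of at least 3, a pseudocount of 8, rank-based or quantile normalised values, no trend, the total count or column run as covariate, voom on recovered counts and other rat batch terms; fits on Fos within single rat batches and fits without the 2 shallowest libraries or male rat 28 were chosen after seeing the data.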

Additional observations from a re-analysis of the deposited data

Results flagged for a closer look

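Among the 40 checks of a gene in a group of 1 sex and rat batch with 4 to 10 rats, 2 values stood apart from their group, both in male rat 28, 1 of the 8 males of rat batch 6. Its Fos level was 6.109, and the nearest of the other males was at 8.276, a gap of 0.532 of the group's range. Its Arc level was 9.236, with the nearest male at 10.99 and a gap of 0.543 of the range. The limit for 8 samples is 0.526, and chance alone passes it in about 5% of groups. The 40 checks cover 10 genes in only 4 groups, and Fos and Arc had r = 0.99 in rat batch 6. The 2 flagged values are thus not independent of each other, and their cause was not tested. The total count of this library was 18595731, above the median of the series.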

How the results depend on the processing

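No paired analysis was possible because no label pairs rats of different sex or batch. Over 636 recomputed values, 597 kept their direction and side of the threshold, or stayed close. With Fos, the count of 69 genes stayed between 60 and 76 under the other planned scalings and covariates and with the left-out libraries, was 87 with Egr1 and 64 with Arc, and was 7, 22, 47 and 16 within rat batches 2, 3, 4 and 6, where fewer rats were fitted; within rat batch 2, 5 of the 9 immediate early genes were called. With the column run as covariate, the rat batch test called 169 genes in place of 9192 and 0 of the 10 in place of 2. In that fit rat batch 6 minus 2 rests on the 1 library of rat batch 3 in the last run. It was -0.66 for Egr1 and -1.19 for Jun, and ran from -0.26 (Junb) to -4.34 (Atf3) over the 10 genes. For rat batch 6 minus 2, Nr4a1 was not called with rank-based values (adjusted p = 0.0573) or with the total as covariate (0.0568). The pseudocount of 8 called 1 interaction gene, none of the 10, and lowered the SD of Atf3 to 1.23. Sex calls over all genes numbered 10 within rat batch 3, 9 within rat batch 4 and 8 within rat batch 6, against 15. No sex difference of the 10 genes passed in any setting, and 11 of their values changed sign. Within rat batch 6 these were Atf3 at 0.035, Dusp1 at 0.11, Jun at 0.068, Junb at 0.073 and Nr4a1 at 0.10; within rat batch 4, Dusp1 at 0.059 and Jun at 0.10; and without rat batch in the model, Jun at 0.011. Btg2 was at -0.0025 with quantile normalization, -0.011 without the 2 shallowest libraries and -0.45 within rat batch 3. The cause was not tested. Depth limits Atf3 most, where 3 libraries held at most 3 counts.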
